A study of Mus musculus with 12 samples.

Results

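The genes of peritubular smooth muscle and its matrix described here were Acta2, Cnn1, Myh11 and Tagln of the contractile apparatus, the proteoglycan genes Bgn and Dcn, and the fibrillar collagen genes Col1a1, Col1a2 and Col3a1. They were chosen by symbol and make up 9 of the 23235 genes in the deposited table. All 12 libraries were used, in 4 groups of 3: pachytene spermatocytes labelled Rnaseh1 knock-out (KO-labelled), pachytene spermatocytes labelled wild type (WT), KO-labelled leptotene/zygotene (LZ) spermatocytes and WT LZ spermatocytes. Every group had the C57BL/6 strain background, and no age, promoter or Cre driver is given in the sources used here. The cells were sorted by fluorescence with a purity check, and their polyadenylated RNA was amplified as cDNA before sequencing. Rnaseh1 encodes RNase H1, a nuclease that cuts RNA paired with DNA, and the comparison of genotypes at each stage asks which RNAs differ where this enzyme is labelled as deleted.

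Peritubular myoid cells are flat, smooth-muscle-like cells that wrap the seminiferous tubule. They contract to move sperm and fluid, and with Sertoli cells they lay down the basement membrane and the collagen-rich layers of the tubule wall. Transcription of their contractile genes is driven in smooth muscle by serum response factor (SRF) with myocardin-family co-activators, which bind CArG boxes. These genes mark somatic cells of the tubule wall, so their RNA was set beside markers of the labelled germ cells and of other testis cells.

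Values are FPKM scaled by spike-in RNA, hereafter FPKM, and errors are SD over the 3 libraries of a group (n = 3). The summed FPKM of all genes was 4811567 to 6702158 in KO-labelled pachytene libraries and 3319970 to 4183734 in WT pachytene libraries, against 430372 to 512468 in KO-labelled LZ and 609831 to 885259 in WT LZ libraries. The summed FPKM of 8 spermatocyte genes, among them Sycp3 of the chromosome axis, was 15090 to 15963 in KO-labelled pachytene, 10458 to 14258 in WT pachytene, 2246 to 3211 in KO-labelled LZ and 3683 to 4391 in WT LZ libraries, and none of the 8 was at 0 in any library. Rnaseh1 itself was not called lower in KO-labelled cells at either stage. It was at 77.3, 68.9 and 94.3 FPKM in KO-labelled pachytene libraries, against 52.7, 51.7 and 56.8 in WT pachytene libraries. At LZ it was at 11.0, 18.3 and 14.8 FPKM in KO-labelled libraries, against 16.1, 20.5 and 16.8 in WT libraries. The LZ mean was thus lower in KO-labelled cells, with overlapping groups (log2 change -0.28, adjusted p = 0.407 in limma). A value per gene includes exons outside a deleted part, and the deleted part is not given in the sources used here, so each direction below is that of the libraries as labelled. The labels do not say that replicates came from separate animals, and each p therefore measures the spread between these libraries, which may be technical. A change is called at a Benjamini-Hochberg adjusted p under 0.05 from limma over 15400 genes on log2(FPKM + 1), a scale that understates the change of low genes.

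At pachytene, 6 of the 9 genes were lower in KO-labelled than in WT libraries and 0 were higher. Acta2, Cnn1 and Myh11 of the contractile apparatus fell, as did Bgn, Col1a1 and Col1a2 of the matrix, while Tagln, Dcn and Col3a1 did not pass the test. Of all genes tested, 14.3% were called lower and 24.6% higher in this comparison. The median log2 change of the 9 genes was -1.64, beside 0.37 for all genes. In bulk samples, fewer cells of a type and less RNA per cell cannot be told apart.

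**Figure D1:**
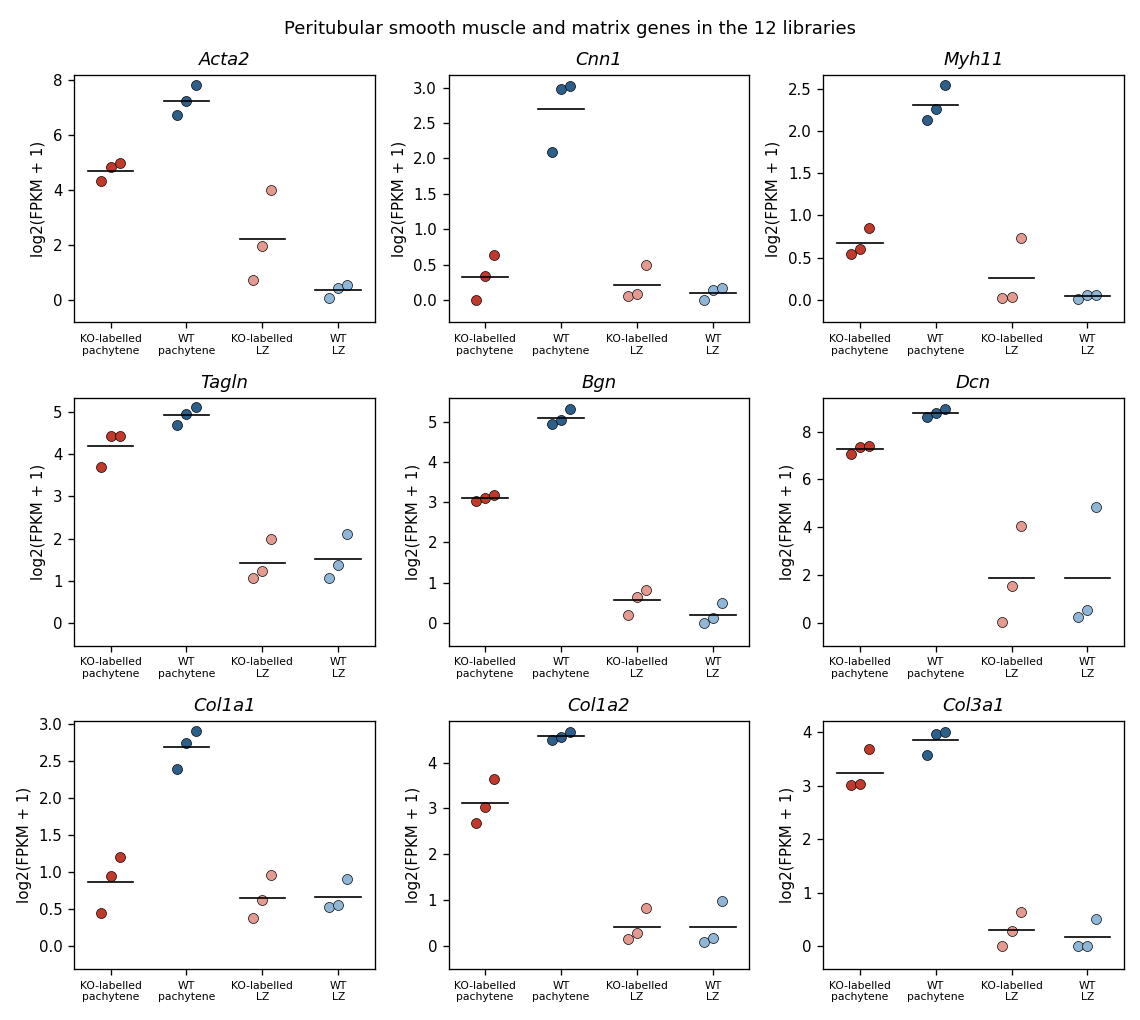
Log2(FPKM + 1), spike-in scaled, of each gene in every library, with 1 panel and 1 y axis per gene and the groups KO-labelled pachytene, WT pachytene, KO-labelled LZ and WT LZ from left to right. Points are libraries and lines are group means (n = 3). The 3 KO-labelled pachytene libraries lie below the 3 WT pachytene libraries for every gene except Col3a1.

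Acta2 encodes smooth muscle alpha-actin, the main actin of contractile myoid cells. It measured 27.3, 19.1 and 30.8 FPKM in KO-labelled pachytene libraries, against 106, 224 and 149.7 FPKM in WT pachytene libraries. All 3 KO-labelled libraries were below the lowest WT library. The means were 25.7 ± 6.04 FPKM in KO-labelled and 159.8 ± 59.7 FPKM in WT pachytene cells, and the log2 change was -2.55 (SE 0.60, adjusted p = 0.0126 in limma).

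Cnn1 encodes calponin, an actin-binding protein that inhibits the myosin ATPase. It measured 0.549, 0 and 0.262 FPKM in KO-labelled pachytene libraries, against 3.25, 7.18 and 6.93 FPKM in WT pachytene libraries. The groups did not overlap, and KO-labelled replicate 2 was listed at 0. The log2 change was -2.38 (SE 0.29, adjusted p = 0.000669 in limma).

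Myh11 encodes the smooth muscle myosin heavy chain, the motor of contraction. It measured 0.460, 0.523 and 0.804 FPKM in KO-labelled pachytene libraries, against 3.78, 4.81 and 3.36 FPKM in WT pachytene libraries. The highest KO-labelled library was below the lowest WT library. The means were 0.595 ± 0.184 FPKM in KO-labelled and 3.98 ± 0.742 FPKM in WT pachytene cells, with a log2 change of -1.64 (SE 0.25, adjusted p = 0.00165 in limma).

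Low values came in whole steps, which shows how little lay behind some of them. Among the lowest values, the ratio of a gene between a pair of libraries clustered at 1 number, taken as the relative worth of 1 step. In KO-labelled pachytene libraries 1 step was worth 1.45 to 1.73 times that of WT pachytene replicate 1, against 0.795 to 1.00 times in WT pachytene libraries. Divided by the step and by the gene's smallest such value, Cnn1 was whole within 0.01 in 10 of the 10 libraries where it was above 0. It stood at 2, 0 and 1 steps in KO-labelled pachytene libraries, against 18, 50 and 46 steps in WT pachytene libraries. Myh11 was whole within 0.01 in 11 of 12 libraries, and stood at 6, 6 and 11 steps in KO-labelled pachytene, against 75, 120 and 80 steps in WT pachytene libraries. For each gene the library with the smallest value was at 1 step by construction, so that library could not fail. Whether 1 step is 1 fragment is not known, but the KO-labelled values of both genes rest on few steps, 3 in all for Cnn1 and 23 for Myh11, against 114 and 275 in WT pachytene.

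Tagln encodes transgelin (SM22-alpha), an actin cross-linking protein of early smooth muscle. It measured 12.0, 20.5 and 20.6 FPKM in KO-labelled pachytene libraries, against 34.0, 30.0 and 25.1 FPKM in WT pachytene libraries. The groups did not overlap, and the means were 17.7 ± 4.93 FPKM in KO-labelled and 29.7 ± 4.47 FPKM in WT cells. The log2 change of -0.74 did not pass the test (SE 0.34, adjusted p = 0.0940 in limma).

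Promoters are shown for Acta2, Cnn1 and Col1a2, since these genes were lower together at pachytene and belong to the contractile apparatus and to the fibrillar collagens. RefSeq promoter windows on build GRCm38.p6, which run from 250 bases before to 50 bases after the gene start, were found for 5 of the 9 genes (Acta2, Bgn, Cnn1, Col1a2 and Col3a1). The 250 bases before the start are printed 5′ to 3′ for Acta2 (chr19:34255374-34255623, minus strand), Cnn1 (chr9:22099003-22099252, plus strand) and Col1a2 (chr6:4505368-4505617, plus strand), on a later build than that of the deposited values. Capitals mark CCAAT and CArG boxes with 1 C or G in the core.
Acta2: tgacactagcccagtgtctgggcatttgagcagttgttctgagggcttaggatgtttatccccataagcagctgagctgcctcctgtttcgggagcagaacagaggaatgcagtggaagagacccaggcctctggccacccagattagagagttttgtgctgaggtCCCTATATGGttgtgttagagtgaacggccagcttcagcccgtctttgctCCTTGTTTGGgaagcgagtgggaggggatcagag
Cnn1: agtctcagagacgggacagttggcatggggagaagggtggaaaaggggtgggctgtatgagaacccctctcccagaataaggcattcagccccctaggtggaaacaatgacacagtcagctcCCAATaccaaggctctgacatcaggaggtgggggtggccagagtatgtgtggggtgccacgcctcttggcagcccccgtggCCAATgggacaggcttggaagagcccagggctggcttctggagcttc
Col1a2: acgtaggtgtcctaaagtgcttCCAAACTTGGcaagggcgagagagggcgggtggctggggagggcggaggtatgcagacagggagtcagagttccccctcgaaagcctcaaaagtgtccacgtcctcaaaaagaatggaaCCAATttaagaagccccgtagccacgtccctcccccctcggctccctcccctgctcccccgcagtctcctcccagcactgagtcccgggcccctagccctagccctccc

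An exact CArG box, with only A or T in its core, was in 0 of the 5 windows of 300 bases and in 1.63% of all 32851 windows, searched on both strands. A CArG box with 1 C or G in its core, a motif chosen after the values were seen, was in the windows of Acta2 and Col1a2 and in 8.5% of all windows. Acta2 held it at bases 167 to 176 and 217 to 226 counted from the 5′ end of its window, and Col1a2 at bases 23 to 32. CCAAT was in the windows of Cnn1 (bases 123 to 127 and 204 to 208) and Col1a2 (bases 142 to 146 and 251 to 255) and in 37.4% of all windows. TATAAA was in the Col3a1 window (bases 134 to 139) and in 13.6% of all windows, and Bgn held none of the 4 motifs. The motifs did not overlap each other in these 5 windows, and a match is a description of letters only.

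Dcn encodes decorin, a small leucine-rich proteoglycan that binds collagen fibrils. It measured 161, 134 and 166 FPKM in KO-labelled pachytene libraries, against 391, 439 and 495 FPKM in WT pachytene libraries. The groups were far apart, with means of 153.9 ± 17.3 FPKM in KO-labelled and 442 ± 52.1 FPKM in WT cells. The log2 change of -1.51 did not pass the test across all 12 libraries (SE 1.05, adjusted p = 0.243 in limma), where the spread of Dcn includes that of the LZ libraries, but did so with the 6 pachytene libraries alone (adjusted p = 0.00441 in limma). That second fit is given for Dcn only, not for Tagln or Col3a1, and without the share of all genes it called. Dcn is therefore not counted among the genes called lower.

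Bgn encodes biglycan, the closest relative of decorin. It measured 7.17, 7.64 and 8.13 FPKM in KO-labelled pachytene libraries, against 38.9, 29.6 and 31.97 FPKM in WT pachytene libraries. The spread within the KO-labelled group was small beside the distance between the groups, with means of 7.65 ± 0.478 FPKM in KO-labelled and 33.5 ± 4.82 FPKM in WT cells. The log2 change was -1.99 (SE 0.26, adjusted p = 0.000916 in limma).

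Col1a1 and Col1a2 encode the alpha-1 and alpha-2 chains of type I collagen, a main fibrillar collagen of connective tissue. Col1a1 measured 1.31, 0.372 and 0.936 FPKM in KO-labelled pachytene libraries, against 6.52, 4.27 and 5.68 FPKM in WT pachytene libraries, and its log2 change was -1.81 (SE 0.27, adjusted p = 0.00161 in limma). Col1a2 measured 7.14, 5.41 and 11.4 FPKM in KO-labelled pachytene libraries, against 22.4, 21.5 and 24.5 FPKM in WT pachytene libraries, with a log2 change of -1.46 (SE 0.32, adjusted p = 0.0103 in limma). The groups overlapped for neither gene.

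Col3a1 encodes the chain of type III collagen, which forms fine fibrils with type I. It measured 7.21, 7.06 and 11.9 FPKM in KO-labelled pachytene libraries, against 14.7, 10.9 and 15.04 FPKM in WT pachytene libraries. KO-labelled replicate 3 was above WT replicate 2, so the groups overlapped. The log2 change was -0.60 (SE 0.29, adjusted p = 0.1005 in limma).

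For 8 of the 9 genes every KO-labelled pachytene library was below every WT pachytene library, against 18% of all genes tested. Cnn1, Myh11 and Col1a1 passed the filter on low values only through the WT pachytene libraries, which favoured a lower KO-labelled value. Outside WT pachytene, Cnn1 and Myh11 reached 1 FPKM in no library, so they had to differ. Col1a1 reached it only in KO-labelled pachytene replicate 1. Of the other 6 genes, 3 were called lower. With no filter on low values 6 genes were called lower, beside 7.01% of all genes. Scaling each library by its median ratio over genes above 0 in every library (median-ratio scaling) also gave 6 genes called lower, beside 9.89% of all genes called lower and 3.73% called higher, and all 9 without overlap, beside 24.5% of all genes. On that scale the median change was -1.59 for the 9 genes and 0.05 for all genes.

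**Figure D2:**
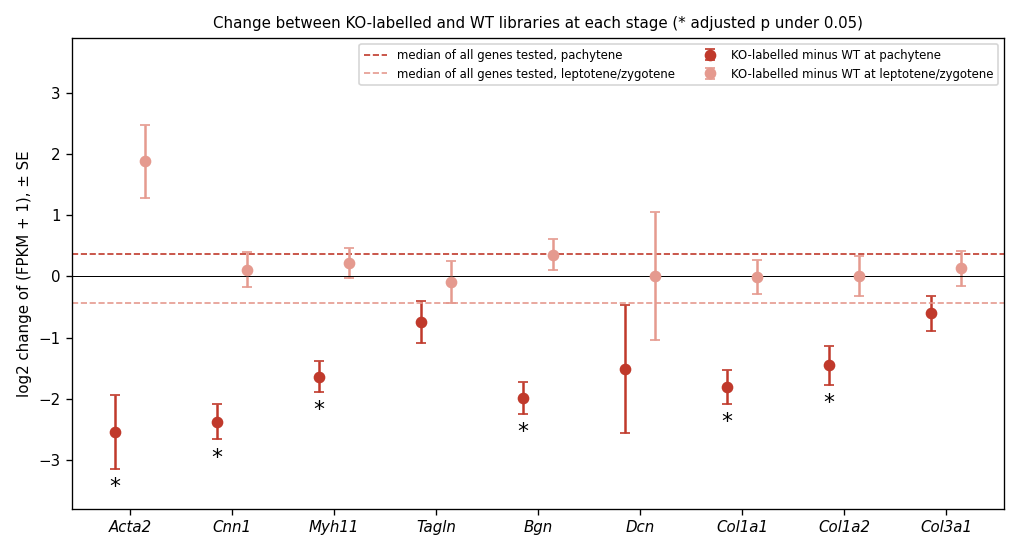
Log2 change of each gene with its standard error, KO-labelled against WT, at pachytene and at LZ. Asterisks mark an adjusted p under 0.05, and a dashed line for each stage marks the median of all genes. At pachytene, 6 of the 9 points carry an asterisk and lie at -1.46 or lower.

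The genes did not fall in proportion. The level of Acta2 per level of Tagln was 2.27, 0.928 and 1.495 in KO-labelled pachytene libraries, against 3.11, 7.46 and 5.97 in WT pachytene libraries. Acta2 per Dcn was 0.169, 0.142 and 0.185 in KO-labelled libraries, against 0.271, 0.510 and 0.302 in WT libraries. Both ratios were lower in every KO-labelled library than in any WT library.

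Among the collagens, Col3a1 per Col1a2 was 1.01, 1.31 and 1.04 in KO-labelled pachytene libraries, against 0.655, 0.508 and 0.614 in WT pachytene libraries. Col1a1 per Col1a2 was 0.183, 0.0687 and 0.0817 in KO-labelled libraries, against 0.292, 0.199 and 0.232 in WT libraries. The first ratio was higher and the second lower in every KO-labelled library. The second rests on low values of Col1a1, at 0.372 to 1.31 FPKM in KO-labelled pachytene libraries. Acta2 per Myh11 overlapped between the groups, at 36.5 to 59.5 in KO-labelled and 28.0 to 46.6 in WT pachytene libraries. With 3 libraries against 3, an exact permutation test cannot give a two-sided p below 0.1, and these ratios carry no test.

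**Figure D3:**
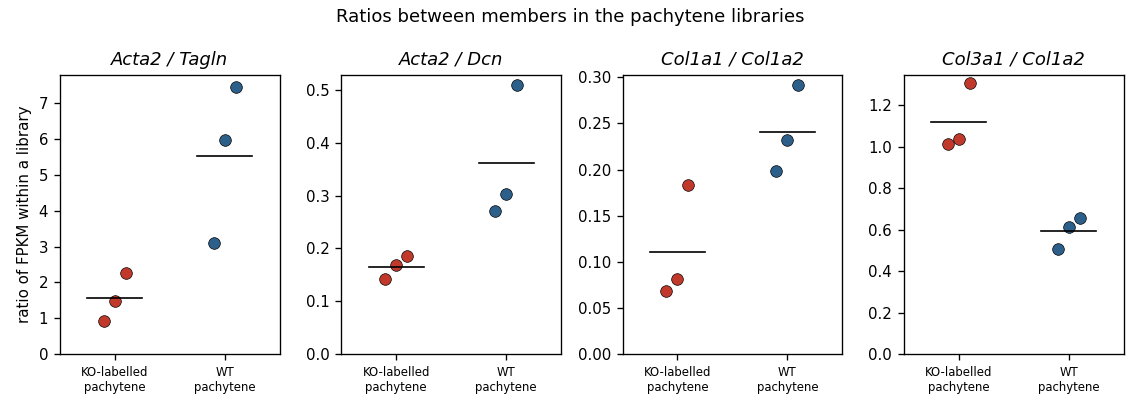
Ratios between the FPKM of pairs of genes in the pachytene libraries, KO-labelled left of WT, with 1 point per library. Acta2/Tagln, Acta2/Dcn and Col1a1/Col1a2 lie lower and Col3a1/Col1a2 lies higher in all 3 KO-labelled libraries. Acta2/Myh11, which overlapped, is not drawn.

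The order of levels, in FPKM, which is per kilobase, was led by Dcn in both pachytene groups. In KO-labelled pachytene cells Dcn (153.9 ± 17.3) was followed by Acta2 (25.7 ± 6.04) and Tagln (17.7 ± 4.93), then by Col3a1 (8.71 ± 2.72), Col1a2 (7.997 ± 3.11) and Bgn (7.65 ± 0.478), and last by Col1a1 (0.871 ± 0.471), Myh11 (0.595 ± 0.184) and Cnn1 (0.270 ± 0.275). Neighbours within each of these sets overlapped between libraries, and the sets did not. In WT pachytene cells the order was Dcn (442 ± 52.1), Acta2 (159.8 ± 59.7), Bgn (33.5 ± 4.82) and Tagln (29.7 ± 4.47), Col1a2 (22.8 ± 1.53), Col3a1 (13.5 ± 2.27), and then Cnn1 (5.79 ± 2.2), Col1a1 (5.49 ± 1.14) and Myh11 (3.98 ± 0.742). There, Bgn overlapped Tagln and the last 3 genes overlapped each other, and the other neighbours were apart. Dcn supplied 66.2% to 71.8% of the summed FPKM of the 9 genes in KO-labelled and 56.9% to 65.4% in WT pachytene libraries. The 9 genes together made up 0.00335% to 0.00522% of the summed FPKM of all genes in KO-labelled and 0.0181% to 0.0190% in WT pachytene libraries.

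At LZ the 9 genes were close to 0 in most libraries, and 0 of them passed the test between KO-labelled and WT libraries in limma, beside 0.136% of all genes called higher and 12.9% called lower (0.451% and 0.741% after median-ratio scaling, again with 0 of the 9). Acta2 alone had an unadjusted p under 0.05. It measured 0.644, 15.1 and 2.87 FPKM in KO-labelled LZ libraries, against 0.358, 0.452 and 0.0382 FPKM in WT LZ libraries. The groups did not overlap, which held for 1 of the 9 genes and for 0.935% of all genes in the same direction. The log2 change was 1.88 (SE 0.60, adjusted p = 0.0537 in limma), and without KO-labelled LZ replicate 2 it was 0.99.

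That replicate had the highest value of its group and of all LZ libraries for Acta2, Cnn1 (0.405 FPKM), Myh11 (0.665 FPKM) and Bgn (0.771 FPKM). It was also the highest of its group for Tagln and Col1a2, but not for Col1a1 and Col3a1. Dcn did not follow it, at 0.0354, 1.97 and 15.5 FPKM in KO-labelled LZ libraries, against 0.177, 27.8 and 0.455 FPKM in WT LZ libraries. Its high values were thus in KO-labelled replicate 3 and WT replicate 2, and the groups overlapped, with a log2 change of 0.01 (SE 1.05, adjusted p = 0.998 in limma). Tagln was the 1 gene of the 9 at 1 FPKM or more in all 12 libraries, with 1.10, 2.96 and 1.35 FPKM in KO-labelled LZ, against 3.33, 1.60 and 1.09 FPKM in WT LZ libraries. Bgn, Col1a1, Col1a2 and Col3a1 ranged from 0 to 0.948 FPKM in KO-labelled LZ and from 0 to 0.980 FPKM in WT LZ libraries.

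Between the stages, most genes of the table were higher at pachytene than at LZ on the spike-in scale. In WT cells 9 of the 9 genes were called higher at pachytene, beside 80.9% of all genes called higher and 0.487% lower. The filter favoured a rise of Cnn1, Myh11 and Col1a1 here too, since only the WT pachytene libraries took them past it. The log2 changes ran from 2.02 for Col1a1 to 6.91 for Dcn and 6.92 for Acta2, with a median of 3.68 beside 1.64 for all genes. After median-ratio scaling the 9 genes were still called higher, beside 20.8% of all genes called higher and 18.9% lower. In KO-labelled cells 6 of the 9 genes were called higher, beside 76.8% of all genes called higher and 2.83% lower, with a median change of 2.55 beside 2.29 for all genes. Cnn1 (log2 change 0.11), Myh11 (0.40) and Col1a1 (0.21) did not pass. After median-ratio scaling 1 gene, Col3a1, was called higher in KO-labelled cells, beside 32.3% of all genes, and 1, Col1a1, was called lower, beside 31.2%.

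The difference between the KO-labelled effects of the stages, pachytene minus LZ, was called lower for 6 of the 9 genes, beside 3.49% of all genes called lower and 34.9% higher. Of these 6, Cnn1, Myh11 and Col1a1 passed the filter only through the WT pachytene libraries, which favours a negative difference, and the other 3 did not depend on them. The 6 genes were Acta2 (-4.43, SE 0.85), Cnn1 (-2.49, SE 0.41), Bgn (-2.34, SE 0.36), Myh11 (-1.86, SE 0.35), Col1a1 (-1.80, SE 0.39) and Col1a2 (-1.46, SE 0.46) on the log2 scale, with adjusted p in limma between 0.00493 and 0.0248. Tagln (-0.65), Dcn (-1.53) and Col3a1 (-0.74) did not pass. The value for Dcn rested on single LZ libraries: it was -3.01 without WT LZ replicate 2, where it was called (adjusted p = 0.0472 in limma), -2.45 without KO-labelled LZ replicate 1, and -0.45, -0.71 and -0.86 without KO-labelled LZ replicate 3, WT LZ replicate 1 or WT LZ replicate 3. After median-ratio scaling 4 genes were called lower, beside 4.7% of all genes called lower and 2.64% higher, and Myh11 (adjusted p = 0.0643 in limma) and Col1a2 (adjusted p = 0.0756) were not.

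Other genes of the same cell type and matrix were read from lists. At pachytene 14.3% of all genes were called lower and 24.6% higher, and the list counts below stand beside these shares. Of 14 further genes of the smooth muscle contractile apparatus, 13 were tested at pachytene and 9 were lower in KO-labelled cells, 0 higher, with a median log2 change of -1.41. Myl9, the regulatory light chain of smooth muscle myosin, averaged 53.1 ± 6.86 FPKM in KO-labelled and 324 ± 75.3 FPKM in WT pachytene cells (log2 change -2.57, adjusted p = 0.00237 in limma). Actg2, smooth muscle gamma-actin, averaged 26.9 ± 12.3 FPKM in KO-labelled and 144 ± 23.5 FPKM in WT cells (log2 change -2.46). Tpm2, a tropomyosin, averaged 2.79 ± 1.22 FPKM in KO-labelled and 17.2 ± 4.83 FPKM in WT cells (log2 change -2.28). Of the 13, 11 would have passed the filter without the WT pachytene libraries, and 7 of those were called lower. At LZ, 1 of the 13 was lower in KO-labelled cells and 0 higher, beside 12.9% and 0.136% of all genes. This was Actg2, which averaged 15.8 FPKM in KO-labelled and 60.4 FPKM in WT LZ cells (log2 change -2.32, adjusted p = 0.0272 in limma). The lower level of Actg2 was thus not particular to pachytene, though at LZ it was not called after median-ratio scaling (log2 change -1.85). Myl9 averaged 42.8 FPKM in KO-labelled and 32.6 FPKM in WT LZ cells, and Tpm2 0.833 and 0.453 FPKM.

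Of 12 other collagen genes, 8 were tested at pachytene and 4 were lower in KO-labelled cells, 0 higher (median log2 change -0.65), and after median-ratio scaling 0 were. Only 5 of the 8 would have passed the filter without the WT pachytene libraries, and 2 of those 5 were called lower. Col6a2, which passed only through the WT pachytene libraries, averaged 1.01 ± 0.978 FPKM in KO-labelled and 3.30 ± 0.978 FPKM in WT cells. Col6a1, another chain of type VI collagen, averaged 4.04 ± 1.58 FPKM in KO-labelled and 9.78 ± 2.25 FPKM in WT cells, and Col4a2 of the basement membrane 2.21 ± 0.443 FPKM in KO-labelled and 5.25 ± 0.318 FPKM in WT cells. Of 19 other matrix proteins, 16 were tested, with 9 lower and 2 higher in KO-labelled cells (median -1.07). Without the WT pachytene libraries 11 of the 16 would have passed the filter, and 6 of those 11 were called lower. Mgp, the matrix Gla protein, averaged 37.3 ± 3.35 FPKM in KO-labelled and 157 ± 30.0 FPKM in WT cells, and the leucine-rich proteoglycan gene Prelp, which passed only through the WT pachytene libraries, 0.443 ± 0.137 FPKM in KO-labelled and 5.79 ± 1.76 FPKM in WT cells. Fbln1, fibulin-1, averaged 1.31 ± 0.826 FPKM in KO-labelled and 6.69 ± 1.76 FPKM in WT cells. Aspn (log2 change 0.78), of the same family as Bgn and Dcn, and Postn (1.01), periostin, were the 2 that were higher, named after their values were seen, and after median-ratio scaling 0 were called higher.

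Enzymes and chaperones that modify, fold and process collagen gave 5 lower and 0 higher of 15 tested, with a median of -0.39. Of all genes, 14.3% were called lower and 24.6% higher, with a median of 0.37. P4ha2, a subunit of collagen prolyl hydroxylase, had a log2 change of -1.58, and Plod2, a lysyl hydroxylase, of -1.09. Of 10 regulators of the SRF and TGF-beta pathways, 7 were tested, with 1 higher and 1 lower (median 0.27). As a set they thus stood near all genes. Mkl1, an SRF co-activator of the myocardin family, was higher at 37.3 ± 12.7 FPKM in KO-labelled and 17.1 ± 3.05 FPKM in WT pachytene cells (log2 change 1.03, adjusted p = 0.0247 in limma), and Smad3, a TGF-beta effector, was lower (-0.92). Neither was called after median-ratio scaling.

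**Figure D4:**
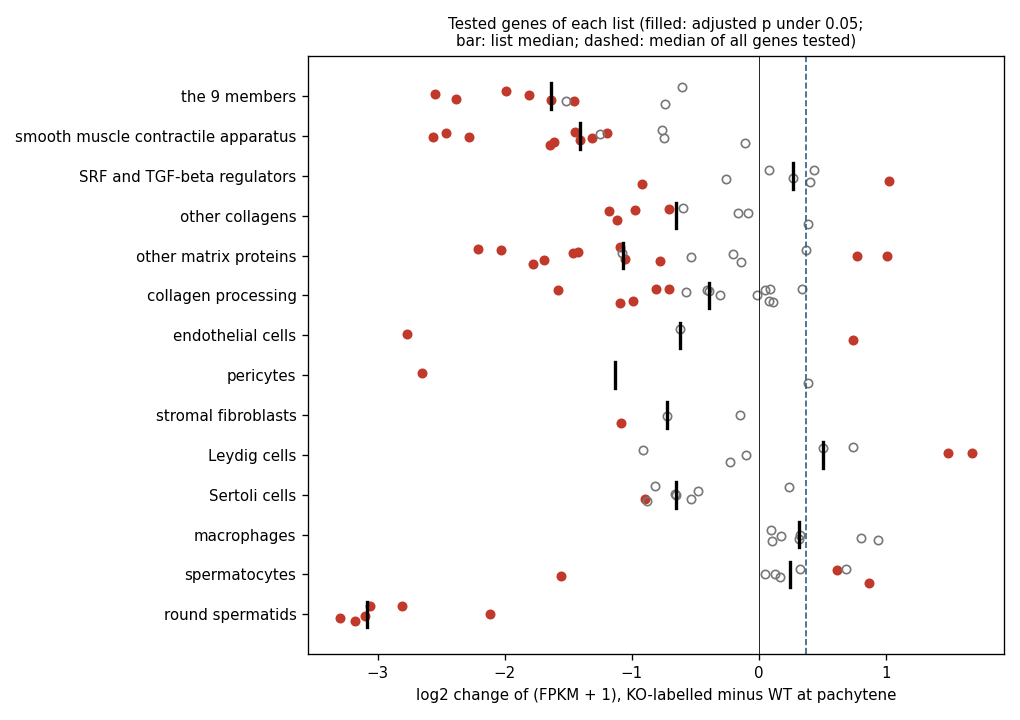
Log2 change of KO-labelled against WT at pachytene for each tested gene of each list, with a dashed line at the median of all genes (0.37) and filled points for an adjusted p under 0.05. Most smooth muscle and matrix genes lie below the line, and all 6 round spermatid genes lie below it, with a median of -3.08.

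Markers of other cells were also read at pachytene, where 14.3% of all genes were called lower and 24.6% higher. Their part in the results was not tested. Of 10 Sertoli cell genes, 9 were in the table and 8 were tested, with 1 lower in KO-labelled cells and 0 higher (median log2 change -0.65). After median-ratio scaling 2 were called lower and 0 higher (median -0.84), beside 9.89% and 3.73% of all genes. On that scale the difference between stages was called lower for 5 of the 8, beside 4.7% of all genes. The summed FPKM of the Sertoli cell genes was 520 to 601 in KO-labelled and 806 to 1116 in WT pachytene libraries. Most of that sum was Clu, which was not called and averaged 456 FPKM in KO-labelled and 809 FPKM in WT pachytene cells. All 6 round spermatid genes were lower, with sums of 1635 to 9182 FPKM in KO-labelled and 36468 to 44491 FPKM in WT pachytene libraries, and neither list overlapped. Of 7 Leydig cell genes 2 were higher and 0 lower, with overlapping sums of 1242 to 5347 FPKM in KO-labelled and 2292 to 8622 FPKM in WT libraries. The 7 macrophage genes gave 0 calls in limma, 1 unadjusted p under 0.05 and sums of 387 to 621 FPKM in KO-labelled and 147 to 816 FPKM in WT libraries, which overlapped.

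Smooth muscle genes are also made by pericytes and vessel walls, and matrix genes by fibroblasts. Of 7 pericyte genes 2 were tested, and Mcam was lower, at 1.58 ± 1.41 FPKM in KO-labelled and 14.1 ± 4.91 FPKM in WT pachytene cells. Rgs5, a defining pericyte marker, was at 0 in 2 of 3 KO-labelled and 3 of 3 WT pachytene libraries, and Notch3 and Pdgfrb averaged below 0.1 FPKM in both groups. Abcc9, the other pericyte gene tested, was not called, at 1.42 FPKM in KO-labelled and 0.822 FPKM in WT cells. The summed FPKM of the list was 2.02 to 4.78 in KO-labelled and 12.3 to 23.2 in WT libraries, and most of the WT sum was Mcam. Of 9 endothelial genes 3 were tested, with Egfl7 lower (0.549 ± 0.582 FPKM in KO-labelled and 9.42 ± 3.47 FPKM in WT cells) and Pecam1 higher (1.36 ± 0.467 FPKM in KO-labelled and 0.420 ± 0.358 FPKM in WT cells). Emcn was at 0 in all 6 pachytene libraries. The endothelial list summed to 3.398 to 4.85 FPKM in KO-labelled and 11.9 to 18.1 FPKM in WT libraries, and most of the WT sum was Egfl7. Of 6 stromal fibroblast genes 3 were tested and Ly6a was lower (31.7 ± 9.22 FPKM in KO-labelled and 69.7 ± 27.7 FPKM in WT cells), with sums of 42.3 to 56.8 FPKM in KO-labelled and 77.2 to 133.7 FPKM in WT libraries.

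Among 10419 other genes with a mean of at least 5 FPKM in 1 group, the profile over the 12 libraries most like the mean profile of the 9 genes was that of Dpep1, a membrane dipeptidase, at a root mean square difference of 0.22 on the centred log2 scale. Cald1 followed at 0.33; it encodes caldesmon, an actin-binding protein of smooth muscle. Cd200 (0.33), Tpm1 (0.39), Fhl2 (0.40), Cav1 (0.41), Selenbp1 (0.42) and Ptprm (0.42) came next. Dpep1 averaged 8.49 FPKM in KO-labelled pachytene, 24.6 in WT pachytene, 0.623 in KO-labelled LZ and 0.205 in WT LZ cells. Of the 9 genes themselves, Col1a2 (0.26) and Bgn (0.36) lay closest to their mean profile and Dcn (1.89) lay farthest.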

How the data were processed

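RNA of 12 sorted mouse spermatocyte libraries was read from 1 deposited table. The values are FPKM per gene, which the authors scaled by ERCC spike-in RNA, per the file headers. TopHat2 2.1.1, Cufflinks 2.2.1 and build mm9 are named in the submitters' processing notes. The annotation and the scaling formula are not given in the sources used here. Columns of 12 libraries were matched to samples by title, and 4 unnamed columns were not used. No read counts were used, and no interval that rests on counts is given. From the lowest values, the depth of the libraries relative to WT pachytene replicate 1 was 0.740 to 1.54.

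Genes with at least 1 FPKM in at least 3 of 12 libraries (15400) were kept. Group means of log2(FPKM + 1) were fitted in 1 model over all libraries with limma 3.58.1 under R 4.3.3, with a variance trend, two-sided, and p adjusted by Benjamini-Hochberg over all 15400 genes. The fit was tested on simulated data. Alternatives were pseudocounts of 0.1 and 5, no filter and a filter of 5, median-ratio and total scaling, each library left out, the compared groups alone, and a replicate block. The relative depth and the relaxed CArG motif were added after seeing the data.

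Members, gene lists and tests were chosen with earlier results of these data known. All 9 members are named in each comparison. From each list at most 3 genes are named, those with the largest called change, or the highest mean where none was called, and the 8 genes of the most similar profile are named. Sycp3, Aspn, Postn, Rgs5, Notch3, Pdgfrb, Abcc9, Clu and Emcn were named outside this rule, after their values were seen. Emr1 was used for Adgre1, and Rhox5 was not matched.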

Additional observations from a re-analysis of the deposited data

Results flagged for a closer look

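The KO-labelled effect differed between the stages for 6 of the 9 genes, by the test of the difference itself in limma, beside 3.49% of all genes called in that direction and 34.9% in the other. On the log2 scale the effect at pachytene minus that at LZ was -4.43 for Acta2, -2.49 for Cnn1, -2.34 for Bgn, -1.86 for Myh11, -1.80 for Col1a1 and -1.46 for Col1a2. For Acta2 the effects of the stages had opposite signs, -2.55 at pachytene and 1.88 at LZ, and the second did not pass the test. Cnn1, Myh11 and Col1a1 passed the filter on low values only through the WT pachytene libraries. After median-ratio scaling 4 of the 6 were called, and Myh11 (adjusted p = 0.0643 in limma) and Col1a2 (adjusted p = 0.0756) were not.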

How the results depend on the processing

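The count of genes called lower at pachytene, KO-labelled against WT, was 3 with a filter of 5 FPKM, which left 6 genes tested, and 4 to 7 with each library left out. It was 4 without any 1 of the 3 WT pachytene libraries, where 7 genes passed the filter. The difference between stages gave 3 calls with the filter of 5 and 4 to 7 with each library left out. At LZ, KO-labelled against WT, 1 gene (Acta2) was called with a pseudocount of 0.1, with the filter of 5 and without KO-labelled LZ replicate 1, a range of 0 to 1 with each library left out. In WT cells the stage comparison gave 7 to 9 calls with each library left out, and in KO-labelled cells 6 to 7, but 2 under median-ratio scaling and 2 under total scaling. No direction turned in the comparison at pachytene, the WT stage comparison or the difference between stages under any alternative run. Calls over all genes also moved with the library left out, as given below. The counts of this section carry no share of all genes, so they do not show stability beside that share.

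Directions turned elsewhere, and the cause was not tested. In the LZ comparison the log2 change was -0.12 for Dcn and -0.0026 for Col1a2 with a pseudocount of 5, 0.37 for Tagln and 0.30 for Col1a1 under median-ratio scaling, and 0.46 and 0.39 under total scaling. With each library left out it ran from -0.37 to 0.21 for Tagln, -0.16 to 0.13 for Col1a1, -0.030 to 0.19 for Cnn1, -0.016 to 0.34 for Myh11, -0.20 to 0.29 for Col1a2, -1.06 to 1.5 for Dcn and -0.031 to 0.31 for Col3a1. In the KO-labelled stage comparison it was -0.051 for Acta2, -0.39 for Cnn1, -0.30 for Myh11 and -0.98 for Col1a1 under median-ratio scaling, -0.57, -0.48, -0.40 and -1.25 under total scaling with Tagln at -0.17, and -0.043 to 0.27 for Cnn1 with each library left out.

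The correlations between the deviations of same-numbered libraries ran from -0.17 to 0.26. They were above 0 for every pair in both stage comparisons, but no comparison had every pair above 0.1, so the numbers were not taken as pairs. With the replicate number as a block, 1 gene was called at LZ (Acta2, log2 change 1.88, adjusted p = 0.0347 in limma), and 6 at pachytene, 9 and 6 between stages in WT and KO-labelled cells and 6 for the difference between stages.

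Single calls at pachytene also depended on the choices. Col1a2 (-1.56, adjusted p = 0.0951) was lost with a pseudocount of 0.1 and Myh11 (-1.21, adjusted p = 0.0636) under total scaling, while Tagln and Col3a1 were called with a pseudocount of 5. Over all genes, calls at pachytene numbered 5980, but 1361 and 1342 without KO-labelled replicate 1 or 2 and 2100 and 2061 without WT replicate 1 or 2. At LZ they numbered 2013, but 359 and 89 without KO-labelled replicate 2 or 3, and 7 and 4 without WT replicate 1 or 2. Absolute depth is unknown, so the counting error of low values could not be given.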
